A study of Mus musculus with 49 samples.

Results

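Nanoparticle-associated (NA) tumor cells are the cells that were drawn out of a digested mammary tumor with a magnet because they carried iron-containing nanoparticles. They were compared with bulk tumor, a piece of the same tumor that was not digested. The libraries were chosen by their labels and paired by mouse number, which gave 3 NA libraries and 3 bulk libraries, 6 of the 49 libraries in the series. Of 55487 genes in the table, 14615 had enough counts to be tested. In both groups the mice were HuHER2 transgenic animals, which carry the human gene of the receptor HER2 and had been palpated for tumors from the age of 7 months. Each of these 3 mice had received 1 intravenous injection of BP, a nanoparticle that the labels name only by this code, at 5 mg Fe per mouse. A further set of 3 bulk tumors came from HuHER2 mice that had received PBS, and 18 NA and bulk libraries came from liver, spleen and bone marrow of the 3 BP mice. Collection was 7 days after treatment per the series' design text, and 31 days per a treatment protocol label. The promoter of the transgene and the number of sorted cells are not given in the sources used here. Every NA library was digested and sorted and no bulk library was, so the selection of cells and the effect of digestion cannot be told apart in any difference below.

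Iron oxide particles given into the blood are known to be taken up mainly by phagocytes, above all macrophages of liver and spleen. Mammary tumors hold macrophages of their own, which carry the growth factor receptor Csf1r and the surface protein F4/80 (Adgre1), beside keratin-rich tumor epithelium, fibroblasts, vessels and other leukocytes. A cell that takes up iron stores it in ferritin (Fth1, Ftl1), exports it through ferroportin (Slc40a1) and breaks down heme with heme oxygenase 1 (Hmox1). Digestion of fresh tissue at warm temperature is known to switch on immediate early genes, which answer to stress within minutes, and heat shock genes, so lists of both were included.

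The 9 tumor libraries held 12664529 to 16666721 expected counts, and 19349 to 20991 genes had a count. Levels are given below in CPM, counts per 1000000 with library sizes scaled over these 9 libraries (not per gene length, so levels of different genes are not compared), always in the order of mouse 1, 2 and 3 of a group, and 3 counts, the most that a count of 0 allows, are 0.158 to 0.254 CPM. Mitochondrial transcripts made up 3.98 to 4.41% of the counts in NA libraries, 19.5, 8.33 and 3.97% in bulk tumor of BP mice 1, 2 and 3, and 3.06 to 4.06% in bulk tumor of PBS mice. Bulk tumor of BP mouse 1 stood apart by its fat-tissue transcripts and that of BP mouse 2 by its skeletal muscle transcripts. The summed adipocyte list reached 245, 169 and 265 CPM in NA cells, 26639.5, 2753 and 882 CPM in BP bulk tumor and 283, 174 and 648 CPM in PBS bulk tumor. The muscle list reached 11, 12.1 and 4.58 CPM in NA cells, 10.1, 5451 and 6.32 CPM in BP bulk tumor and 8.48, 15.8 and 13.5 CPM in PBS bulk tumor. Over all genes tested, the median SD between mice on the log2 scale was 0.24 in NA libraries and 0.40 in BP bulk libraries. Transcripts of the liver gene Alb also varied between libraries of 1 group (14, 472 and 262 CPM in NA cells, 194, 197 and 109 CPM in BP bulk tumor).

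**Figure D1:**
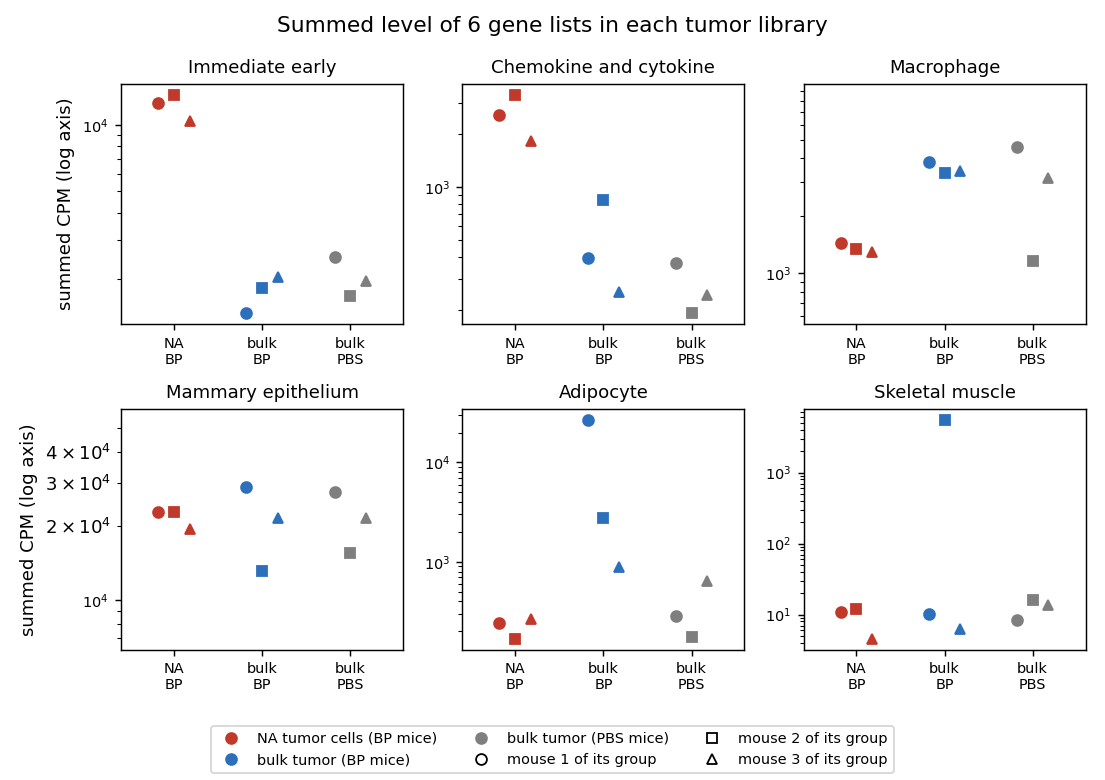
Summed CPM (log axis) of 6 gene lists in each tumor library, with NA cells of BP mice at the left, then bulk tumor of BP mice and of PBS mice; each symbol is 1 mouse. The immediate early sum is higher and the macrophage sum lower in all 3 NA libraries than in all 3 BP bulk libraries, and 1 BP bulk library each stands out for fat and for muscle.

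NA tumor cells differed from the bulk tumor of the same mice in 625 genes, 4.28% of those tested: 449 were higher (3.07%) and 176 lower (1.2%). In 38.3% of the tested genes the 3 NA values did not overlap the 3 BP bulk values. The 10 largest increases among well expressed genes belonged to chemokines and cytokines (Cxcl2, Cxcl1, Ccl3, Csf3, Lif, Il6), to immediate early transcription factors (Fosb, Fosl1), to the growth factor gene Hbegf and to Acod1, an enzyme of activated macrophages. The 10 largest decreases (Retn, Adrb3, Ucp3, Hcar1, Slc7a10, Arxes1, Ankef1, Tmem45b, Adipoq and Cfd) included the adipocyte hormone genes Adipoq and Retn, and in all 10 the highest level was in the fat-rich bulk tumor of mouse 1. The test was edgeR's quasi-likelihood F-test with mouse as a block and Benjamini-Hochberg adjustment, called at an adjusted p under 0.05, and the adjusted p-values of genes below come from it. Over all 14615 genes tested, 4625 had an unadjusted p under 0.05 in either direction. DESeq2 called 3073 genes, 1616 higher and 1457 lower. List counts by these 2 measures stand against these numbers, not against the shares of edgeR's calls. With a tumor's 2 libraries left out, the fit called 856 genes without mouse 1 and 0 without mouse 2 or mouse 3. In the latter 2 fits edgeR had 1 residual degree of freedom, and 3007 and 3853 genes reached an unadjusted p under 0.05. Every list count below that rests on edgeR's adjusted p against BP bulk tumor was therefore 0 without mouse 2 or mouse 3. With single libraries left out and no block, a setting chosen after seeing the data, the count was lowest without the NA library of mouse 1 (20) and highest without the bulk tumor of mouse 3 (1935).

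**Figure D2:**
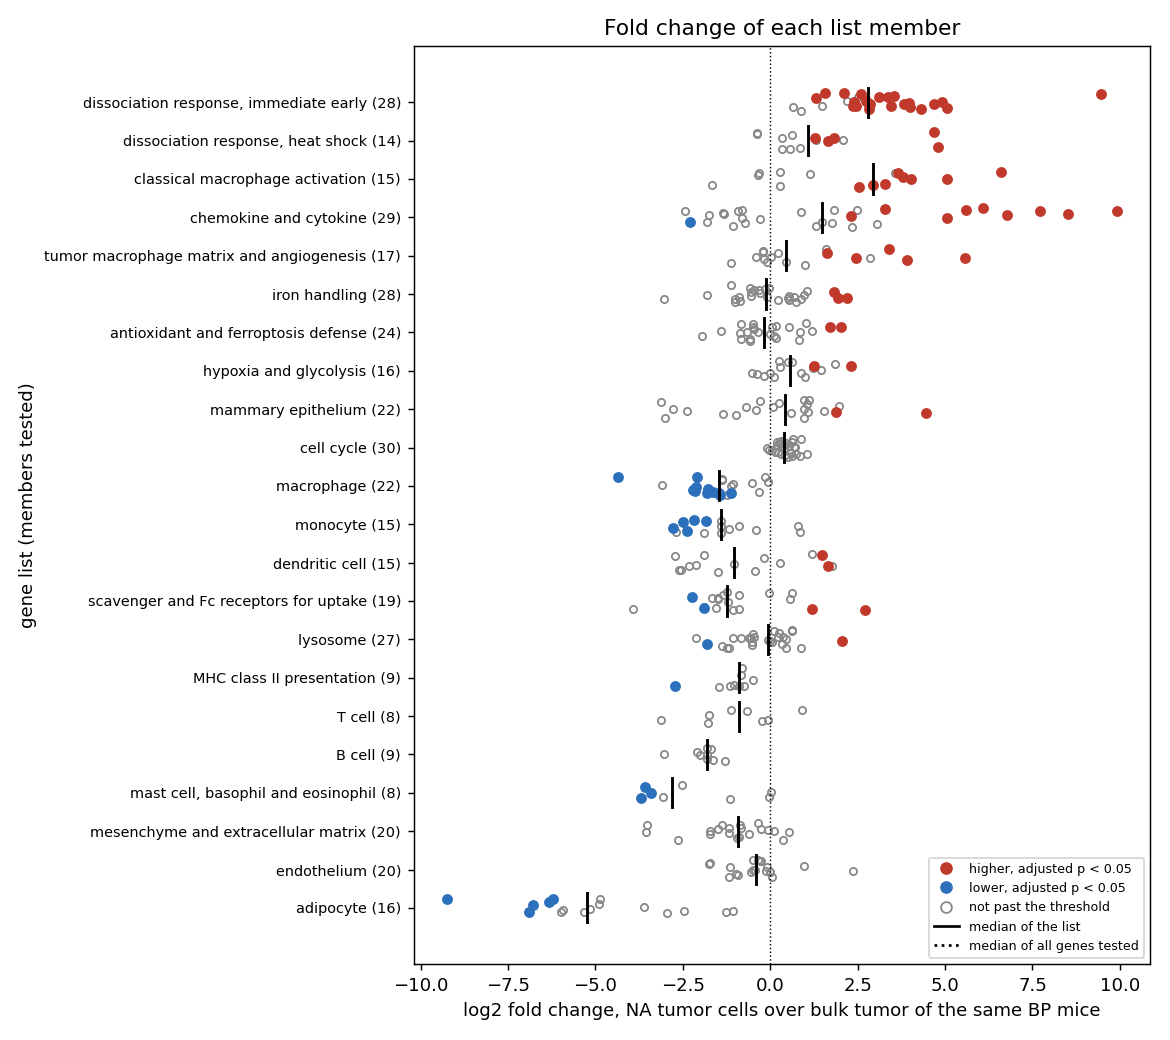
Log2 fold change of each tested list member, NA tumor cells over BP bulk tumor of the same mice, with the number of members tested beside the list name. Filled symbols passed an adjusted p under 0.05 (23 of 28 immediate early genes higher, 12 of 22 macrophage genes lower), black bars are list medians and the dotted line is the median of all genes tested (-0.01).

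Immediate early genes were higher in NA cells throughout the list. All 28 had a higher estimate in NA cells, 23 of 28 passed the threshold against 3.07% of all genes, and the median log2 fold change was 2.81 against -0.01 over all genes. The list summed to 12550.3, 13779.7 and 10496 CPM in NA cells, against 1396, 1807 and 2034 CPM in BP bulk tumor, so that every NA library lay above every bulk library. Fos (ENSMUSG00000021250, chromosome 12, 85473890 to 85477273), which encodes a subunit of the transcription factor AP-1, had 747, 747 and 699 CPM in NA cells, against 16.1, 21.5 and 39.1 CPM in BP bulk tumor (log2 fold change 4.91 ± 0.36, SE; adjusted p = 0.012). Its relative Fosb had 763, 1044 and 577 CPM in NA cells, against 0.93, 0.567 and 1.79 CPM in BP bulk tumor (log2 fold change 9.46 ± 0.63; adjusted p = 0.0105). The AP-1 gene Fosl1 rose to 60.9, 92.4 and 24.3 CPM in NA cells, against 0, 0 and 0.263 CPM in BP bulk tumor, where 5 counts in all were seen. For these 3 genes the NA libraries of mice 1 and 2 were at or above that of mouse 3, and no bulk library came near them. Klf6, a zinc finger factor, had 1292, 1380.4 and 1146 CPM in NA cells, against 99.8, 126 and 136 CPM in BP bulk tumor (adjusted p = 0.0148). Ier3, a stress-induced survival gene, had 1431, 1859 and 849.8 CPM in NA cells, against 83.3, 212 and 181 CPM in BP bulk tumor (adjusted p = 0.0345). Maff, a small Maf factor, had 202, 250.3 and 127 CPM in NA cells, against 11.3, 15.7 and 8.37 CPM in BP bulk tumor (adjusted p = 0.0103). The 5 members that did not pass were Klf2, Ier2, Jund, Egr3 and Dusp2, with log2 fold changes of 0.66 to 2.51. Without mouse 1, 24 passed.

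Promoters of 4 genes from the raised groups are shown because Fos, Hspa1a, Cxcl2 and Cxcl1 moved together in NA cells while belonging to different response families. Each run is the 250 bases just before the RefSeq transcription start (GRCm38.p6), 5′ to 3′ on the gene's own strand, with capitals on matches to 1 of 4 motifs: TGACGT (part of the cAMP response element), TGANTCA (AP-1), GGGA, any base and TTTCC in a row (NF-kB) and GAANNTTC (2 inverted heat shock units). Both strands were searched, and TGANTCA was found in none of the 4.
Fos, chr12:85473640-85473889, plus strand: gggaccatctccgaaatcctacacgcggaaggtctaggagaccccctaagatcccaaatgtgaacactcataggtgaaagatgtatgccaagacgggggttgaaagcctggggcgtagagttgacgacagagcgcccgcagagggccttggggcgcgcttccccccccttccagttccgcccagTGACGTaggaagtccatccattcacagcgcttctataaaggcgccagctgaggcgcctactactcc
Hspa1a, chr17:34972157-34972406, minus strand: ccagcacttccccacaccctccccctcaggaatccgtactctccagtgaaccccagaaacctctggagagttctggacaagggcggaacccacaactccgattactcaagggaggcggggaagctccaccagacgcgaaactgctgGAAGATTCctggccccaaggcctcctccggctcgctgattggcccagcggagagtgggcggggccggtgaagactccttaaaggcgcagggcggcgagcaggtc
Cxcl2, chr5:90903649-90903898, plus strand: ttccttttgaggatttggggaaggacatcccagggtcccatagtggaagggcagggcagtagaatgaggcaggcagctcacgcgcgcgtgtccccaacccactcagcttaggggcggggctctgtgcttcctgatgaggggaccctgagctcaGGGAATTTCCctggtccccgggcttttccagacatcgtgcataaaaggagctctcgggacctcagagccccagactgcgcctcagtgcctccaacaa
Cxcl1, chr5:90890995-90891244, plus strand: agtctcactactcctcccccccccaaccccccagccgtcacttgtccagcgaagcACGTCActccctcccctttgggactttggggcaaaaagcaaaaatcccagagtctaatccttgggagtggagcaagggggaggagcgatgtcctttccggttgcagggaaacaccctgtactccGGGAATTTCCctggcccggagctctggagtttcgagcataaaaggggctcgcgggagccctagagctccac
The Fos match lies 61 to 66 bases before the start and the Hspa1a match starts 97 bases before it. Cxcl2 and Cxcl1 hold the same 10 letters of the NF-kB motif, 88 to 97 and 62 to 71 bases before their starts, and Cxcl1 holds a TGACGT match on the other strand. Of all 27025 promoters in the table, 6.55% hold TGACGT, 6.84% TGANTCA, 0.344% the NF-kB motif and 6.78% GAANNTTC. Among 23 immediate early promoters 5 hold TGACGT, among 22 chemokine and cytokine promoters 4 hold the NF-kB motif, and among 11 heat shock promoters 5 hold GAANNTTC. TGANTCA was in 0 of the 23, 3 of the 22 and 2 of the 11, and TGACGT in 1 of the 22 and 1 of the 11. The NF-kB motif was in 1 of the 23 and 0 of the 11, and GAANNTTC in 1 of the 23 and 2 of the 22. A match of letters is a description and shows no binding.

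Heat shock genes were raised in part. Of 14 tested, 5 were higher (Hspa1a, Hspa1b, Bag3, Hsph1 and Dnajb1) and none lower, against 3.07% of all genes higher, with a list median of 1.07. Hspa1a (ENSMUSG00000091971, chromosome 17, 34969190 to 34972156), which encodes the inducible chaperone HSP70, had 906, 1269 and 547 CPM in NA cells, against 28.7, 34.6 and 27.2 CPM in BP bulk tumor (log2 fold change 4.80 ± 0.31; adjusted p = 0.0105). Its near-identical copy Hspa1b had 2251, 3197 and 1321 CPM in NA cells, against 76.2, 96.2 and 69.1 CPM in BP bulk tumor, and reads of the 2 copies may be shared out wrongly between them. Bag3, a partner of HSP70, had 146, 143 and 151 CPM in NA cells, against 46.3, 32.5 and 42.5 CPM in BP bulk tumor (adjusted p = 0.0311). Hspa8 and Hsp90ab1, chaperones that cells make without stress, did not pass: Hspa8 had 1932, 2029 and 1676 CPM in NA cells, against 1296, 1597 and 1506 CPM in BP bulk tumor (adjusted p = 0.414), and Hsp90ab1 a log2 fold change of 0.85 ± 0.31 (adjusted p = 0.132). The inducible copies were low in every bulk tumor and high in every NA library.

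Chemokine and cytokine genes were raised in NA cells, with 9 of 29 tested higher (3.07% over all genes) and 1 lower (1.2%), and a list median of 1.49. The list summed to 2583, 3355 and 1819 CPM in NA cells, against 391, 841 and 251 CPM in BP bulk tumor. Cxcl2 (ENSMUSG00000058427, chromosome 5, 90903871 to 90905938), a neutrophil attractant, had 361, 482 and 208 CPM in NA cells, against 0, 0.638 and 0.369 CPM in BP bulk tumor (log2 fold change 9.92 ± 0.72; adjusted p = 0.0119). Cxcl1, which acts on the same receptor, had 679.7, 840.1 and 481 CPM in NA cells, against 3.38, 9.15 and 5.9 CPM in BP bulk tumor (log2 fold change 6.78 ± 0.39; adjusted p = 0.0103). Cxcl2 was near the detection limit in bulk tumor and Cxcl1 was low but detected there, and among the NA libraries both were lowest in that of mouse 3. Lif, a cytokine of the interleukin 6 family, had 840.3, 1222 and 576 CPM in NA cells, against 2.71, 5.89 and 3.58 CPM in BP bulk tumor (log2 fold change 7.72 ± 0.34; adjusted p = 0.00871). Csf3, the growth factor of granulocytes, had 172, 245 and 89.8 CPM in NA cells, against 0.338, 0.709 and 0.263 CPM in BP bulk tumor (log2 fold change 8.52 ± 0.29; adjusted p = 0.00415). Ccl3, a chemokine made by macrophages and other leukocytes, had 19, 11.6 and 20.9 CPM in NA cells, against 0.338, 0.284 and 0.369 CPM in BP bulk tumor (adjusted p = 0.0105). The others higher were Ccl4, Cxcl3, Il1rn and Osm, of which Cxcl3 had 147 counts over the NA libraries and 2 over the bulk libraries, a ratio of 75.2 at equal depth with a 95% counting interval of 20.4 to 626.5. The member that fell was Ccl6, with 13, 20.3 and 4.26 CPM in NA cells, against 50, 158 and 14.9 CPM in BP bulk tumor (log2 fold change -2.28 ± 0.30; adjusted p = 0.0345).

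Genes of classical macrophage activation were also higher, 8 of 15 against 3.07% of all genes and none lower, with a median of 2.94. The 8 were Il1a, Il1b, Il6, Tnf, Il12b, Il23a, Ptgs2 and Socs3. Tnf, the gene of tumor necrosis factor, had 76, 95 and 48.9 CPM in NA cells, against 2.54, 1.99 and 1.79 CPM in BP bulk tumor (log2 fold change 5.04 ± 0.29; adjusted p = 0.0103). Il1b, which encodes interleukin 1 beta, had 54.9, 60.6 and 42.8 CPM in NA cells, against 2.45, 7.3 and 7.21 CPM in BP bulk tumor (log2 fold change 3.29 ± 0.40; adjusted p = 0.0312). Il6 had 23.8, 20.6 and 23 CPM in NA cells, against 0, 0.567 and 0.158 CPM in BP bulk tumor (adjusted p = 0.0311). Acod1, which makes itaconate in activated macrophages, had 30.6, 62.9 and 5.79 CPM in NA cells, against 0.169, 0.638 and 0 CPM in BP bulk tumor (log2 fold change 7.04 ± 0.51; adjusted p = 0.0119). Socs3, a feedback inhibitor of cytokine signaling, rose as well (log2 fold change 2.54 ± 0.29; adjusted p = 0.0273). Nos2, the inducible nitric oxide synthase often used to mark this state, was too low to test, at 0.321, 0.237 and 0.254 CPM in NA cells and 1.86, 0.284 and 0.263 CPM in BP bulk tumor. Irf1, an interferon-induced factor, had 96.6, 93.1 and 81.4 CPM in NA cells and 93.4, 70.6 and 58.8 CPM in BP bulk tumor (adjusted p = 0.419), ranges that overlap. Of the alternative activation list, 2 of 12 were higher, the cytokine gene Il10 and the factor Klf4, and 2 were lower, the mannose receptor gene Mrc1 and the secreted Retnla. Over all genes 3.07% were higher and 1.2% lower. Il10 had 7.83, 6.33 and 6.49 CPM in NA cells, against 0.254, 0.142 and 0 CPM in BP bulk tumor (adjusted p = 0.0368). Mrc1 had 8.35, 9.82 and 7.89 CPM in NA cells, against 56.3, 53.9 and 19.3 CPM in BP bulk tumor (adjusted p = 0.0443). Arg1, the arginase gene, had 110.4, 96.2 and 115 CPM in NA cells and 39.4, 55.2 and 57.8 CPM in BP bulk tumor, groups that do not overlap, with an adjusted p of 0.0549.

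**Figure D3:**
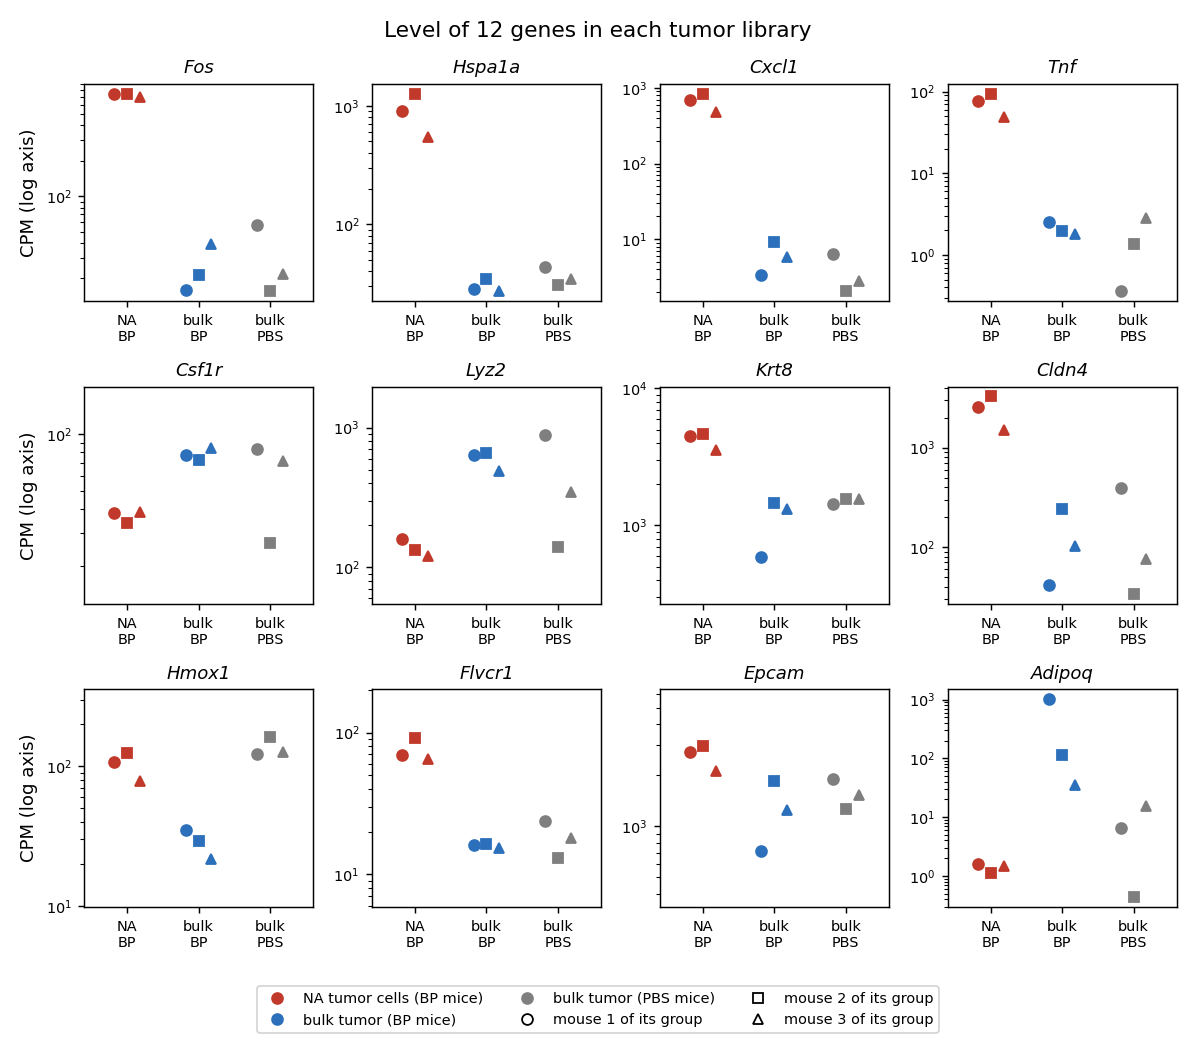
CPM (log axis) of 12 genes in each tumor library, NA cells of BP mice at the left, then bulk tumor of BP mice and of PBS mice; each symbol is 1 mouse. Fos, Hspa1a, Cxcl1, Tnf, Cldn4 and Flvcr1 are higher in all NA libraries than in all bulk libraries of either kind, whereas Hmox1 in NA cells lies above BP bulk tumor and partly below PBS bulk tumor.

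Macrophage genes were lower in the NA fraction than in bulk tumor. None of 22 had a higher estimate, 12 of 22 passed the threshold as lower against 1.2% of all genes, and the median log2 fold change was -1.45. In bulk samples, fewer cells of a type and less RNA of that gene per cell cannot be told apart, and this holds for all lists. The summed list had 1444, 1333 and 1290.2 CPM in NA cells, against 3847, 3373 and 3451 CPM in BP bulk tumor, so the 3 NA libraries were close to each other and each held less than any BP bulk library. Csf1r (ENSMUSG00000024621, chromosome 18, 61100598 to 61132149), the receptor on which most macrophages depend, had 38.3, 33.6 and 38.5 CPM in NA cells, against 77.4, 72.6 and 84.2 CPM in BP bulk tumor (log2 fold change -1.12 ± 0.18; adjusted p = 0.0432). Adgre1, which encodes F4/80, had 12.1, 13.1 and 11.2 CPM in NA cells and 25.7, 23.2 and 28.8 CPM in BP bulk tumor (log2 fold change -1.12 ± 0.25; adjusted p = 0.0624). Lyz2, the lysozyme gene of myeloid cells, had 159.7, 134 and 121 CPM in NA cells, against 637, 657 and 494 CPM in BP bulk tumor (log2 fold change -2.14 ± 0.23; adjusted p = 0.0268). Neither Csf1r, Adgre1 nor Lyz2 overlapped between the fractions, and all 3 were present in every NA library. Gpnmb, a glycoprotein of lipid-laden macrophages, had 0.899, 0.475 and 0.954 CPM in NA cells, against 29.2, 4.18 and 22.3 CPM in BP bulk tumor (log2 fold change -4.36 ± 0.50; adjusted p = 0.0273). Apoe, an apolipoprotein gene strongly expressed in macrophages, had 751, 684 and 689 CPM in NA cells and 2082, 1471 and 1906 CPM in BP bulk tumor (adjusted p = 0.0512). The other members that fell were Mrc1, C1qa, C1qb, C1qc, Fcgr1, Trem2, Aif1, Tyrobp and Ms4a7, which encode among others the complement protein C1q and Fc and lipid receptors. Cd68, a lysosomal protein gene of phagocytes, was the member nearest to no difference, at 27.4, 32.6 and 18.9 CPM in NA cells and 33.6, 23.6 and 22.1 CPM in BP bulk tumor (log2 fold change -0.05 ± 0.26; adjusted p = 0.912). Without mouse 1, 14 macrophage genes were lower.

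Monocyte genes were lower in part, with 5 of 15 lower (Ccr2, Cx3cr1, F13a1, Fcgr3 and Ms4a6c), against 1.2% of all genes, none higher and a median of -1.42. Cx3cr1, a chemokine receptor of patrolling monocytes and macrophages, had 4.5, 4.51 and 5.6 CPM in NA cells, against 19.5, 20.3 and 48.7 CPM in BP bulk tumor (adjusted p = 0.0313). Cd14, the co-receptor for bacterial lipopolysaccharide, had a positive estimate that did not pass, at 559.9, 422 and 564 CPM in NA cells and 249, 261 and 365 CPM in BP bulk tumor (adjusted p = 0.0916). Of 10 testable genes typical of resident macrophages in liver and spleen, Cd209f was lower, with 6.74, 8.39 and 1.97 CPM in NA cells and 38.2, 77.1 and 7.21 CPM in BP bulk tumor (adjusted p = 0.0346), ranges that overlap although it was lower in each pair. It was the only call in this list, against 1.2% of all genes lower. All 10 estimates of these resident macrophage genes were negative, with a median of -1.62. At an unadjusted p under 0.05, 5 were lower, against 4625 of 14615 genes in either direction. DESeq2 called 5 lower, against 1457 of all genes. Marco, a scavenger receptor of such cells, did not pass the filter on low counts (0.385, 0.158 and 0.127 CPM in NA cells, 7.78, 0.993 and 0.316 CPM in BP bulk tumor).

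Genes for particle uptake and for lysosomes held calls in both directions. Of 19 scavenger, Fc and related receptors, 2 were higher (Tlr2 and Cxcl16), 2 were lower (Stab1 and Clec4a2) against 3.07 and 1.2% of all genes, and the median was -1.23. Of the 19 estimates 15 were negative, 13 were lower and 3 higher at an unadjusted p under 0.05, and DESeq2 called 10 lower and 2 higher. Of all 14615 genes, 4625 had such a p in either direction, and DESeq2 called 1457 lower and 1616 higher. Tlr2, a receptor for bacterial lipoproteins, had 199.8, 229 and 150.1 CPM in NA cells, against 27.9, 28.5 and 28.4 CPM in BP bulk tumor (log2 fold change 2.72 ± 0.23; adjusted p = 0.0172). Stab1, an endocytic scavenger receptor of macrophages and sinus endothelium, had 12.2, 10.1 and 17.5 CPM in NA cells, against 57.7, 29.1 and 61.2 CPM in BP bulk tumor (log2 fold change -1.89 ± 0.25; adjusted p = 0.0345). Among 27 lysosomal genes the calls, 1 in each direction, were near the share over all genes. Gla, the gene of alpha-galactosidase A, was higher (log2 fold change 2.06 ± 0.37; adjusted p = 0.0484; 0.0503 with RLE scaling) and Ctsz, a cathepsin gene, was lower (log2 fold change -1.81 ± 0.32; adjusted p = 0.0475). Ciita, the master activator of MHC class II, was the 1 lower gene of 9 in that list, at 1.48, 2.14 and 1.21 CPM in NA cells, against 13.8, 10.4 and 7.16 CPM in BP bulk tumor (adjusted p = 0.0371). All 9 MHC class II estimates were below 0, with a median of -0.88, and H2-Aa reached an adjusted p of 0.0561.

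Lymphocyte genes had mostly negative estimates that did not pass. Positive estimates made up 10 of 16 in the neutrophil list and 4 of 7 in the regulatory T cell list, against 7209 of 14615 over all genes tested. Ptprc, which encodes the pan-leukocyte protein CD45, had 13.6, 15.3 and 15.3 CPM in NA cells and 42.2, 28.6 and 22 CPM in BP bulk tumor (log2 fold change -1.05 ± 0.32; adjusted p = 0.0978). None of 8 T cell genes, 9 B cell genes or 3 natural killer genes passed in edgeR, while 2, 5 and 1 were lower at an unadjusted p under 0.05 and DESeq2 called 2, 4 and 0 lower. Of all 14615 genes, 4625 had such a p in either direction, and DESeq2 called 1457 lower and 1616 higher. Cd3e, of the T cell receptor complex, was near the detection limit (0.45, 0.158 and 0.445 CPM in NA cells, 2.45, 0.142 and 0.527 CPM in BP bulk tumor). Ms4a1, which encodes CD20 of B cells, had 1.03, 0.317 and 0.445 CPM in NA cells and 3.55, 1.84 and 0.948 CPM in BP bulk tumor (adjusted p = 0.102). The neutrophil gene S100a8 had 9.25, 6.33 and 12.7 CPM in NA cells and 8.37, 12.1 and 7.85 CPM in BP bulk tumor (adjusted p = 0.934). In that list of 16 the pattern receptor gene Clec4e was higher and G0s2 lower, against 3.07 and 1.2% of all genes. The integrin gene Itgax of dendritic cells had 11, 11.4 and 9.67 CPM in NA cells and 12, 14.3 and 16.1 CPM in BP bulk tumor (adjusted p = 0.324). Of 15 dendritic cell genes, Cd83 and Relb, both also induced on activation, were higher, against 3.07% of all genes. None passed as lower in edgeR, but 10 of the 15 estimates were negative, with a median of -1.04. At an unadjusted p under 0.05, 2 were higher and 7 lower, and DESeq2 called 2 higher and 6 lower. The mast cell protease genes Cpa3, Mcpt4 and Cma1 were lower, 3 of 8 in the mast cell, basophil and eosinophil list, against 1.2% of all genes. Their groups overlapped between mice: Cpa3 had 0.385, 1.27 and 0.0636 CPM in NA cells and 4.73, 19.5 and 0.527 CPM in BP bulk tumor. Without the replicate block 0 genes of this list were called lower. Against bulk tumor of PBS mice the list median was 0.12.

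Genes of the tumor epithelium were higher in part, 2 of 22 in NA cells. Krt8 and Krt18, which encode the keratins of luminal epithelium, had larger values in NA cells in all 3 pairs, with groups that do not overlap, but missed the threshold. Krt8 had 4513, 4657 and 3551 CPM in NA cells and 589, 1468 and 1317 CPM in BP bulk tumor (log2 fold change 1.97 ± 0.38; adjusted p = 0.0522). Krt18 had 3509, 3447 and 2909 CPM in NA cells and 610.4, 1840.4 and 1180.4 CPM in BP bulk tumor (log2 fold change 1.54 ± 0.39; adjusted p = 0.074). The epithelial adhesion gene Epcam had 2751, 2979.7 and 2124 CPM in NA cells and 718, 1851 and 1251 CPM in BP bulk tumor (log2 fold change 1.09 ± 0.34; adjusted p = 0.104). For these 3 genes the lowest value was in the fat-rich bulk tumor of mouse 1. The members that passed were Cldn4, a tight junction claudin, and Elf3, an epithelial transcription factor, against 3.07% of all genes, and the list median was 0.42. Of the 22 estimates 9 were negative, 8 were higher and 5 lower at an unadjusted p under 0.05, and DESeq2 called 7 higher and 5 lower. Of all 14615 genes, 4625 had such a p in either direction, and DESeq2 called 1616 higher and 1457 lower. Cldn4 (ENSMUSG00000047501, chromosome 5, 134945119 to 134946934) had 2568, 3274 and 1490.2 CPM in NA cells, against 41.9, 241 and 102.1 CPM in BP bulk tumor (log2 fold change 4.46 ± 0.55; adjusted p = 0.0311). Elf3 had 111, 134 and 70.4 CPM in NA cells, against 28.6, 38.5 and 17.3 CPM in BP bulk tumor (log2 fold change 1.90 ± 0.20; adjusted p = 0.0268). Mouse Erbb2, the counterpart of the human transgene, had 103.5, 132 and 88.1 CPM in NA cells and 46.2, 96.7 and 73.6 CPM in BP bulk tumor (adjusted p = 0.158), and how reads of the transgene were counted is not given in the sources used here. The milk protein gene Csn3 had 5862, 4644 and 5910.2 CPM in NA cells and 9531, 5045 and 12883 CPM in BP bulk tumor (adjusted p = 0.231). The summed epithelial list, in which milk genes weigh heavily, overlapped between fractions, with 22909.6, 22704 and 19405 CPM in NA cells and 28736, 13049.7 and 21459.6 CPM in BP bulk tumor.

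No cell cycle gene of 30 passed in edgeR or DESeq2 and none had an unadjusted p under 0.05. Of the 30 estimates 28 were positive, against 7209 of 14615 over all genes, with a median of 0.41. The list summed to 1526, 1173 and 1838 CPM in NA cells and 385, 1521 and 2001 CPM in BP bulk tumor, lowest in the fat-rich bulk tumor of mouse 1. The proliferation marker Mki67 had 91.2, 68.7 and 164 CPM in NA cells and 34, 80.8 and 201 CPM in BP bulk tumor (adjusted p = 0.68), and in both fractions mouse 3 was highest. Of 20 genes of mesenchyme and extracellular matrix 0 passed in edgeR, with 5 lower at an unadjusted p under 0.05 and 5 lower in DESeq2. Over all 14615 genes, 4625 had such a p in either direction, and DESeq2 called 1616 higher and 1457 lower. Of the 20 estimates 17 were negative, against 7406 of 14615 over all genes, with a median of -0.92. Against PBS bulk tumor the list median was 0.21. Col3a1, a fibrillar collagen gene, had 195, 201 and 219 CPM in NA cells and 1129.9, 806 and 173 CPM in BP bulk tumor (adjusted p = 0.184). Dcn, the decorin gene of fibroblasts, had 21.2, 26.3 and 14.2 CPM in NA cells and 667, 405 and 34.8 CPM in BP bulk tumor (log2 fold change -3.52 ± 0.83; adjusted p = 0.0669). Thbs1, Plaur, Hbegf and the adhesion receptor gene Cd44 were higher in NA cells. Plaur, the urokinase receptor gene, had 80.7, 71.4 and 64.8 CPM in NA cells, against 4.99, 4.4 and 4.53 CPM in BP bulk tumor (log2 fold change 3.92 ± 0.21; adjusted p = 0.0103). Thbs1, which encodes thrombospondin 1, had 653, 737 and 770.0 CPM in NA cells, against 105.9, 109 and 184 CPM in BP bulk tumor (log2 fold change 2.45 ± 0.26; adjusted p = 0.0268). Hbegf, an EGF-family growth factor gene, had 429.9, 484 and 306 CPM in NA cells, against 2.96, 16.8 and 9.79 CPM in BP bulk tumor (log2 fold change 5.56 ± 0.57; adjusted p = 0.0263). Of 28 type I interferon genes 0 passed in edgeR, with 1 higher and 4 lower at an unadjusted p under 0.05 and the same counts in DESeq2. Negative estimates were 22 of the 28, with a median of -0.45. Of 16 complement genes 0 passed in edgeR, with 7 lower at an unadjusted p under 0.05 and 8 lower in DESeq2. Negative estimates were 14 of the 16, with a median of -1.28. Of 20 endothelial genes 0 passed in edgeR, with 1 higher and 2 lower at an unadjusted p under 0.05 and the same counts in DESeq2. Of their estimates 16 were negative, with a median of -0.40. At that unadjusted p the interferon and endothelial shares lay below that of all genes, 4625 of 14615.

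Iron genes gave 3 higher members of 28 in edgeR, against 3.07% of all genes, none lower and a median of -0.13. At an unadjusted p under 0.05, 8 iron genes were higher and 6 lower, and DESeq2 called 7 higher and 5 lower. Of all 14615 genes, 4625 had such a p in either direction, and DESeq2 called 1616 higher and 1457 lower. Hmox1 (ENSMUSG00000005413, chromosome 8, 75093621 to 75100589) had 108, 124 and 78 CPM in NA cells, against 34.8, 29.1 and 21.7 CPM in BP bulk tumor (log2 fold change 1.82 ± 0.22; adjusted p = 0.0297). Flvcr1, a heme exporter gene, had 69.7, 91.3 and 64.7 CPM in NA cells, against 16.1, 16.3 and 15.3 CPM in BP bulk tumor (log2 fold change 2.19 ± 0.21; adjusted p = 0.0234). Bach1, a heme-sensing repressor of Hmox1, had 91.7, 154 and 93.7 CPM in NA cells, against 24.8, 30.8 and 28.7 CPM in BP bulk tumor (log2 fold change 1.94 ± 0.22; adjusted p = 0.0273). The storage and transport genes did not pass. Fth1, the ferritin heavy chain gene, had 1180.3, 1819 and 389 CPM in NA cells and 1480.2, 2439.6 and 714 CPM in BP bulk tumor (adjusted p = 0.191), lowest in mouse 3 in both fractions. Ftl1, the ferritin light chain gene, had 1458, 1334 and 1193 CPM in NA cells and 2018, 1317 and 1007 CPM in BP bulk tumor (adjusted p = 0.838). Both ferritin genes have pseudogene copies, which makes their counts less certain. Slc40a1 had 31.3, 33.8 and 35.7 CPM in NA cells and 41, 49.6 and 32 CPM in BP bulk tumor (adjusted p = 0.431). Tfrc, the transferrin receptor gene, had 99.5, 147 and 81.2 CPM in NA cells and 66.6, 121 and 85.9 CPM in BP bulk tumor (adjusted p = 0.50). Of 24 antioxidant genes, Txnrd1 (thioredoxin reductase, log2 fold change 1.70 ± 0.28, adjusted p = 0.0421) and Srxn1 (sulfiredoxin, 2.02 ± 0.29, adjusted p = 0.0368) were higher, against 3.07% of all genes. None passed as lower in edgeR, and the list median was -0.17. At an unadjusted p under 0.05, 5 antioxidant genes were higher and 7 lower, and DESeq2 called 3 higher and 4 lower. Of 16 genes of hypoxia and glycolysis, the glucose transporter gene Slc2a1 (2.32 ± 0.27, adjusted p = 0.0273) and Hif1a (1.25 ± 0.23, adjusted p = 0.0488; 0.0501 with RLE scaling) were higher, against 3.07% of all genes.

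Adipocyte genes were lower in NA cells, 5 of 16 past the threshold against 1.2% of all genes (Adipoq, Plin1, Lep, Retn and Cfd), with all 16 estimates below 0 and a median of -5.24. Adipoq, the adiponectin gene, had 1.61, 1.11 and 1.46 CPM in NA cells, against 1009.7, 114 and 34.9 CPM in BP bulk tumor (log2 fold change -6.91 ± 1.09; adjusted p = 0.0406). Cfd, the adipsin gene, had 8.93, 3.96 and 6.36 CPM in NA cells, against 5059.7, 447 and 114 CPM in BP bulk tumor (adjusted p = 0.0465). The bulk values thus differ strongly between mice and are highest in mouse 1. Without mouse 1, 13 adipocyte genes were lower. Over all 176 lower genes, 100 had their highest bulk value in mouse 1, and in 24 it was over 4 times that of the other bulk tumors. Over all 14615 genes tested these numbers were 4535 and 388. In 6 of the 10 largest decreases NA cells had 3 counts or fewer in all, such as Adrb3, a beta-adrenergic receptor gene of fat cells, with 3 counts in NA cells and 1611 in bulk tumor, a ratio of 0.0019 with a 95% counting interval of 0.000392 to 0.00558.

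Against bulk tumor of PBS mice, NA cells had 640 higher and 634 lower genes of 14369 tested (4.45 and 4.41%, 8.87% in all), and 35.5% did not overlap. The total ran from 31 without the NA library of mouse 1 to 3026 without the bulk tumor of PBS mouse 1. These 2 comparisons share the NA libraries, and here treatment, mouse and fraction cannot be told apart. Immediate early genes were again higher, 22 of 28, with a median of 3.00. Fos had 747, 747 and 699 CPM in NA cells, against 57.4, 15.6 and 21.7 CPM in PBS bulk tumor (log2 fold change 4.50 ± 0.54; adjusted p = 0.0126). Of the macrophage genes 2 of 22 were lower, Gpnmb and Fcgr1, with a median of -1.12, and bulk tumor of PBS mouse 2 had the lowest macrophage sum of the 9 libraries. Csf1r had 38.3, 33.6 and 38.5 CPM in NA cells and 83.3, 26.6 and 71.7 CPM in PBS bulk tumor (adjusted p = 0.27). Summed macrophage CPM of the PBS bulk tumors was 4604, 1163 and 3141. Krt8 passed in this comparison, with 4513, 4657 and 3551 CPM in NA cells, against 1430.5, 1547 and 1567 CPM in PBS bulk tumor (log2 fold change 1.45 ± 0.23; adjusted p = 0.0213). Hmox1 did not, with 108, 124 and 78 CPM in NA cells and 122, 161 and 126 CPM in PBS bulk tumor (log2 fold change -0.44 ± 0.23; adjusted p = 0.261). Flvcr1 and Bach1 were higher in NA cells here too (log2 fold changes 2.01 ± 0.28 and 1.90 ± 0.33; adjusted p = 0.0168 and 0.0268). Adipoq had 1.61, 1.11 and 1.46 CPM in NA cells and 6.47, 0.436 and 15.5 CPM in PBS bulk tumor (log2 fold change -2.44 ± 1.05; adjusted p = 0.179).

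**Figure D4:**
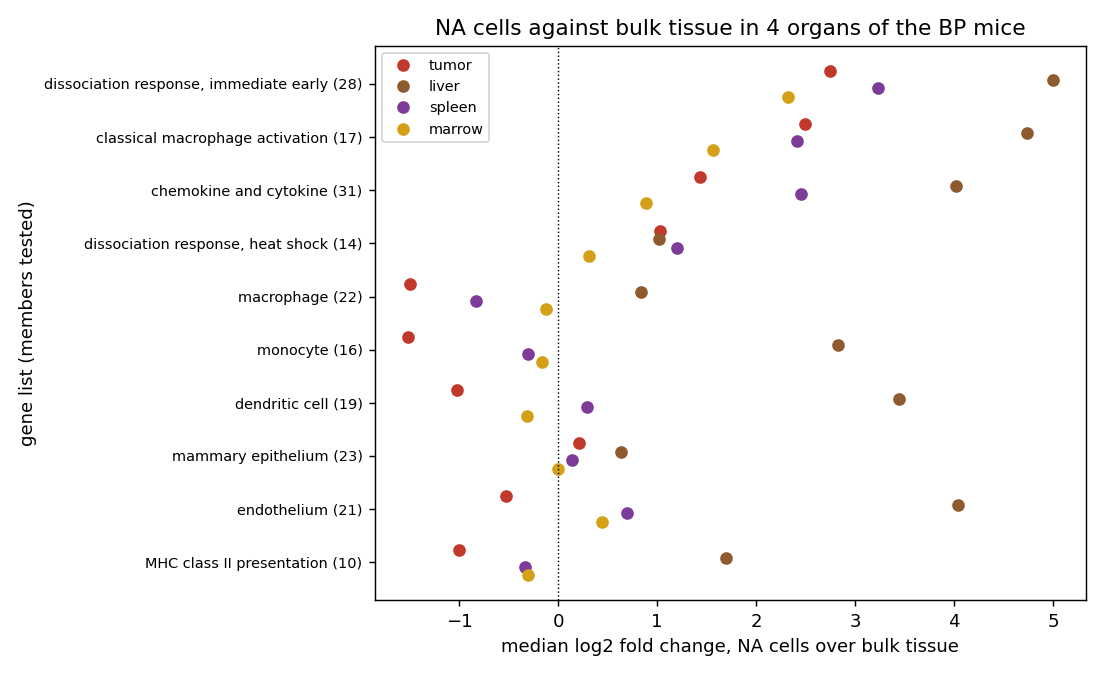
Median log2 fold change of list members, NA cells over bulk tissue of the same BP mice, in tumor, liver, spleen and bone marrow, from 1 fit of 24 libraries, with the number of members tested beside the list name. Immediate early medians are above 0 in all 4 organs, and the macrophage median is lowest in tumor (-1.5) and above 0 in liver (0.83).

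Whether the tumor's difference between NA cells and bulk tissue was its own was tested against the mean of the same difference in liver, spleen and bone marrow of the same mice, in 1 fit of 24 libraries. It differed in 4582 of 17281 genes (26.5%), 1862 higher (10.8%) and 2720 lower (15.7%), and in 2186 to 2814 genes when 1 mouse was left out and 2152 without liver. Macrophage genes differed, with 18 of 22 lower in tumor than in the other organs, none higher, and a median difference of -1.29. The median change of the list was -1.5 in tumor, 0.83 in liver, -0.83 in spleen and -0.13 in bone marrow. For Lyz2 the log2 fold changes were -2.18 in tumor, 0.87 in liver, -0.98 in spleen and -0.14 in bone marrow (difference -2.10 ± 0.26, adjusted p = 1.98e-04). For Csf1r they were -1.16 in tumor, 0.86 in liver, -0.18 in spleen and -0.07 in bone marrow (difference -1.37 ± 0.29, adjusted p = 0.00543; without mouse 3 -1.30, adjusted p = 0.0799). Only in liver were these 2 estimates above 0. Cd14 changed by 0.75 in tumor, against 5.57 in liver, 5.27 in spleen and 4.24 in bone marrow (difference -4.27 ± 0.23, adjusted p = 2.02e-06).

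Immediate early genes had positive medians in all 4 organs: 2.74 in tumor, 5.00 in liver, 3.23 in spleen and 2.33 in bone marrow. Of the 28, the difference from the mean of the other organs was higher in tumor for 4, near the 10.8% of all genes, and lower for 14, against 15.7% of all genes. Fos changed by 4.86 in tumor, 10.08 in liver, 5.80 in spleen and 4.61 in bone marrow (difference -1.97 ± 0.35, adjusted p = 0.00197), but without liver the difference was -0.35 (adjusted p = 0.52). Of 31 chemokine and cytokine genes 3 were higher and 9 lower, with a median difference of -0.63. Their median change was 1.43 in tumor, 4.02 in liver, 2.45 in spleen and 0.89 in bone marrow. Of 17 classical activation genes 1 was higher and 6 lower (median difference -1.06). Cxcl1 had a larger change in tumor (6.72) than in the mean of liver (3.01), spleen (6.98) and bone marrow (4.06; difference 2.04 ± 0.40, adjusted p = 0.00354), and without liver the difference was 1.19 (adjusted p = 0.187). Of 23 mammary epithelium genes 5 were higher and 3 lower in tumor, against 10.8 and 15.7% of all genes, with a median difference of -0.69. The list's median change was 0.21 in tumor, 0.63 in liver, 0.15 in spleen and -0.005 in bone marrow. Its member Krt8 changed by 1.93 in tumor, -0.42 in liver, 0.81 in spleen and 0.87 in bone marrow (difference 1.51 ± 0.31, adjusted p = 0.00424). The call of Krt8 was lost without liver (1.08, adjusted p = 0.0746) and without mouse 2 (1.61, adjusted p = 0.0532). Hmox1 changed by 1.78 in tumor and 1.71 in liver, but by -0.46 in spleen and -0.41 in bone marrow (difference 1.5 ± 0.34, adjusted p = 0.00717; without mouse 3 1.57, adjusted p = 0.0732). All 13 mitochondrial transcripts were lower in the tumor's difference than in the mean of the other organs (median -2.20). Their median change was -1.02 in tumor, 3.89 in liver, -0.32 in spleen and -0.02 in bone marrow, so only the liver median was above 0. Without mitochondrial genes the comparison called 4550 genes, 4501 of them shared with the 4582.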

How the data were processed

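The deposited values are expected counts per gene, estimated counts that need not be whole, in 1 table of 49 libraries. Build mm10, RSEM 1.3.1, STAR 2.7.9a, FastQC 0.11.9 and cutadapt 3.5 are named, without settings, per the submitters' processing notes. The strand setting and annotation release are not given in the sources used here, so genes that overlap another (Fosl1 and Ccdc85b, Csf1r and Hmgxb3, Stab1 and Nt5dc2, Ctsz and Nelfcd, Ciita and Dexi, Cxcl16 and Zmynd15, Erbb2 and Mien1, G0s2 and Lamb3, Cx3cr1 and Wdr48) and close copies (Hspa1a and Hspa1b, the ferritin genes) have uncertain counts. Positions come from GENCODE M21 (GRCm38), counted from 1, and promoters from RefSeq (GRCm38.p6).

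Rounded counts entered edgeR 4.0.16 under R 4.3.3 (filterByExpr with a minimum count of 10, TMM scaling, quasi-likelihood F-test, Benjamini-Hochberg adjustment) for the 6 libraries with mouse as a block. NA and bulk libraries pair because each pair comes from 1 tumor, per the series' design text. The correlations of their deviations from the group means were -0.05, 0.39 and 0.28 for mice 1, 2 and 3. The PBS comparison had no block, and the organ comparison had a block for each of 12 mouse and organ pairs and 1 spread over organs, although organs of 1 mouse are not independent. Libraries differed by more than counting noise, so none was counted as a duplicate. Each replicate is a mouse, so the spread holds animal and technical differences. The scripts were checked on simulated counts. Counting intervals are exact 95% binomial ones and, with no molecular identifiers named, cover counting error alone.

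The 36 gene lists, the comparison and its members were chosen with earlier results of these data known. Genes were named by rule: per direction the 10 largest changes past the threshold that were the same in all 3 pairs, did not overlap and had a mean log2 CPM of at least 2; per list the 2 highest and the 2 with the smallest p; a preset set of markers; and 5 per direction for the organ comparison. A gene is not reported here. Other genes given by name were chosen after their values were seen. Alternatives were RLE scaling, DESeq2 1.42.0, no filter, no mitochondrial genes, other blocks and leaving out libraries.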

Additional observations from a re-analysis of the deposited data

Results flagged for a closer look

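The comparison of the tumor's difference (NA cells over bulk tissue) with the mean of that in liver, spleen and bone marrow was noted because it was itself tested as a difference between organs and called 4582 genes. The genes with the largest such differences were noted for the same reason. Higher in tumor were Acmsd (6.49 on the log2 scale), Nipal1 (4.89), Sult1b1 (4.84), Noct (3.79) and Zfp385b (3.57). Acmsd and Sult1b1 had 13 and 4 counts over the 3 tumor NA libraries and 0 over the BP bulk tumors, so that their fitted tumor change depends on the prior count; in liver they changed by -4.17 and -4.18. Noct, the circadian deadenylase nocturnin, had 391, 621 and 225 CPM in NA tumor cells, against 19.4, 12.8 and 10.1 CPM in BP bulk tumor, and changed by 4.72 in tumor, 0.91 in liver, 1.55 in spleen and 0.33 in bone marrow. Nipal1 had 41.7, 65.9 and 19.5 CPM in NA tumor cells, against 0.676, 9.01 and 2.21 CPM in BP bulk tumor.

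Lower in tumor were Retn (-8.13), Il1r2 (-7.68), Nat8l (-7.37), Fabp3 (-7.24) and Clstn3 (-7.01). Il1r2, the decoy receptor of interleukin 1, changed by -1.25 in tumor but by 8.83 in liver, 6.51 in spleen and 3.95 in bone marrow. Retn, Nat8l, Fabp3 and Clstn3 had their highest tumor value in the fat-rich bulk tumor of mouse 1, for example 0.0642, 0.317 and 0.127 CPM of Nat8l in NA cells, against 147, 5.11 and 1.16 CPM in BP bulk tumor. Without mouse 1 the differences were -5.00 for Retn, -3.44 for Nat8l, -3.57 for Fabp3 (adjusted p = 0.171) and -3.96 for Clstn3, and without mouse 2 Retn had an adjusted p of 1. The call of Zfp385b was lost without mouse 2 (adjusted p = 0.20) and without liver (0.103), and that of Sult1b1 without any 1 mouse.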

How the results depend on the processing

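For NA tumor cells against BP bulk tumor, RLE scaling and leaving out mitochondrial genes kept the count of called genes within 1.5 times of 625. DESeq2 called 3073 genes (1616 higher, 1457 lower). Without a filter on low counts edgeR called 2245 (1102 higher, 1143 lower). Without the replicate block it called 1321 (858 higher, 463 lower), and with the spread estimated from 24 libraries and the replicate block 6619 (2866 higher, 3753 lower). Leaving out 1 mouse gave 0 to 856 genes, with 0 to 604 higher and 0 to 252 lower. With 1 library left out and no replicate block, which was chosen after seeing the data, 20, 51 and 211 genes were called without NA library 1, 2 or 3 (20, 51 and 204 higher, 0, 0 and 7 lower). Without bulk library 1, 2 or 3 these counts were 426, 265 and 1935 (326, 181 and 849 higher, 100, 84 and 1086 lower). Log2 fold changes of 5 named genes that did not pass crossed 0 when libraries were left out. Leaving out 1 mouse gave -0.33 to 0.13 for Cd68, -0.26 to 0.56 for Mki67, -0.26 to 0.14 for Ftl1 and -0.43 to 0.35 for S100a8. With 1 library left out and no replicate block, Cd68 reached 0.16 without bulk library 1 or NA library 3, and Ftl1 0.16 without bulk library 1. Mki67 had -0.42, -0.13 and -0.40 without bulk library 1, bulk library 2 and NA library 3. S100a8 had 0.20 and 0.17 without NA library 2 and bulk library 2, and Tfrc -0.031 without NA library 2. The cause of these shifts was not tested.

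Against PBS bulk tumor DESeq2 called 2817 genes (1350 higher, 1467 lower), and pairing by the number alone, as a replicate block, 44 (39 higher, 5 lower), although these are different mice. Leaving out 1 library gave 31 to 3026 genes, 28 to 1487 higher and 3 to 1539 lower. The organ comparison called 2152 genes without liver (788 higher, 1364 lower) and 2186 to 2814 with 1 mouse left out (684 to 1080 higher, 1399 to 1734 lower). Group means of the 12 summed lists tried moved by less than 1 SD when scaled to library totals. Depth limits genes near the level that 0 counts allow.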
